A study of Homo sapiens with 12 samples.

Results

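Expression was compared between untreated cells of 2 human lung adenocarcinoma lines, HCC4006 and PC9. Both are established lines that carry an activating mutation of EGFR, the gene of a growth factor receptor with kinase activity. The comparison rests on 4 of the 12 libraries of the series: HCC4006 given the solvent DMSO for 24 hours (2 libraries) and PC9 given DMSO for 24 hours (2 libraries). They were chosen by cell line and treatment alone. The same lines were also sequenced after 2 weeks of 100 nM osimertinib, an EGFR inhibitor, with 30 nM trametinib, a MEK inhibitor, a state the labels call dormant (2 libraries each). HCC827, another line with mutant EGFR, gave 2 DMSO and 2 dormant libraries. The labels name no engineered gene in any group. Each group was plated in duplicate. No label tells whether duplicate plates were grown as separate cultures, and p-values therefore measure only the spread between these samples. The labels give no purpose for setting one untreated line beside another.

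Lung adenocarcinoma arises from cells of the distal lung, and many such tumours keep the lineage factor NKX2-1 and surfactant genes. Cultured lines also differ in the keratins of their cytoskeleton, in the redox and detoxification enzymes driven by the factor NRF2, in the genes that interferon induces, and in how far they show mesenchymal genes such as that of vimentin.

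All levels are deposited FPKM, a fragment count scaled by the length of the gene and by the mapped total. Differences are log2(FPKM + 1) in HCC4006 minus that in PC9, given ± SE, and understate the change of genes with low FPKM. A gene was called at a limma p under 0.05 after Benjamini-Hochberg adjustment over the 11281 genes tested, those that reached 1 FPKM in 2 or more of the 4 libraries. FPKM summed to 920212 and 884074 in the HCC4006 libraries and to 889076 and 878241 in the PC9 libraries, and read counts were not analysed here, so depth is known only relatively. By the spacing of FPKM values in short U6 genes, depth was 78.5% and 81.1% in HCC4006 and 103% in the second PC9 library, all relative to the first PC9 library. Across genes, which are not independent replicates, replicates correlated at a Pearson r of 0.978 in HCC4006 and 0.991 in PC9. The second dormant HCC4006 library (r of 0.654 with its replicate) and the second HCC827 DMSO library (0.902) stood apart and were left out of the fit of 10 libraries. This choice was made with earlier results of these data known. Neither library is among the 4 compared, and leaving them out changes the estimate of spread that all groups share. Counts with all 12 are given beside the main ones.

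Untreated HCC4006 and PC9 differed at most of the genes tested. Of the 11281 genes, 4459 were called higher in HCC4006 and 1636 lower, which is 54% of genes tested (39.5% higher, 14.5% lower). The median difference over all tested genes was 0.44, not 0. Mitochondrially encoded genes held 12.5% and 9.46% of the summed FPKM in HCC4006, against 23.7% and 25.2% in PC9, and the part of this in the median was not tested. After median of ratios scaling the median difference was 0.029, with 3083 genes called higher and 2912 lower, so that the share of called genes that were higher was 51.4%, against 73.2% without that scaling. The genes whose levels are given below as called kept call and direction under that scaling, and list counts under it are given where it moved a count by over 1.5 times or brought calls in a new direction. With all 12 libraries in the fit, 936 genes were called higher (8.3% of genes tested) and 433 lower (3.84%), and the adjusted p of that fit is given below for genes whose call it ended. Markers of other cell types were scarce: of 10 fibroblast, 10 leukocyte and 7 endothelial genes found, only THY1 and CD68 passed the filter, and the leukocyte gene PTPRC and the fibroblast gene COL3A1 were listed at 0 in all 4 libraries. The leukocyte list summed to 9.67 and 12.5 FPKM in HCC4006 and 29.7 and 26.3 FPKM in PC9, and the fibroblast list to 3.03 and 3.66 FPKM in HCC4006 and 0.88 and 1.16 FPKM in PC9. The epithelial markers CDH1, EPCAM, KRT7, KRT8, KRT18 and KRT19 were present in all 4, whereas the lung factor NKX2-1 was listed at 0 in PC9.

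**Figure D1:**
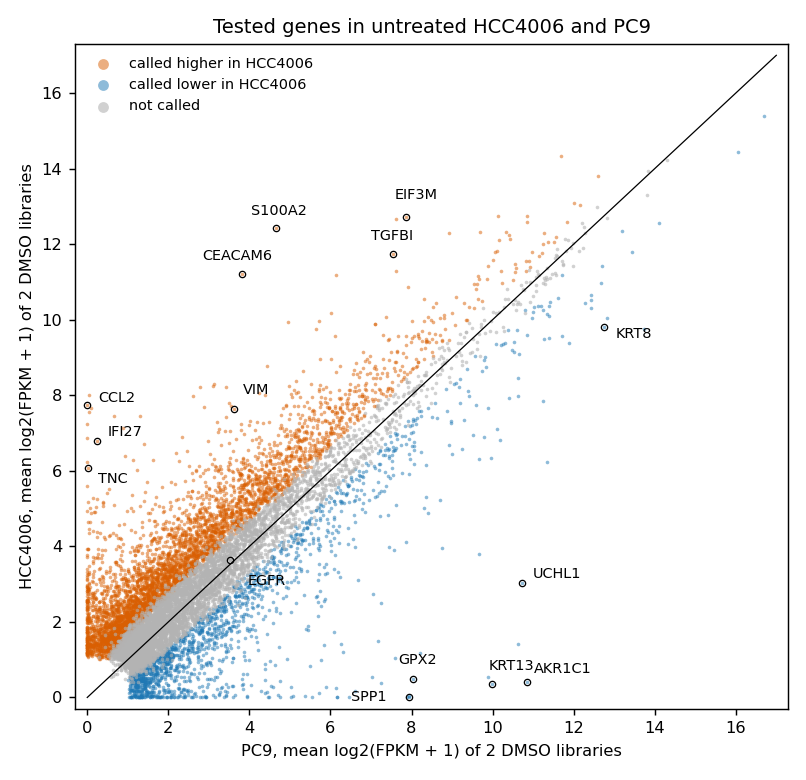
Each point is 1 of the tested genes, with its mean log2(FPKM + 1) over the 2 untreated HCC4006 libraries on the vertical axis and over the 2 untreated PC9 libraries on the horizontal axis; orange marks genes called higher in HCC4006, blue those called lower and grey those not called. The line marks equal levels; S100A2 and CEACAM6 stand far above it, AKR1C1 and KRT13 far below it, and EGFR lies on it.

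The 15 genes with the largest positive differences and the 15 with the most negative ones had varied roles. S100A2, a calcium-binding protein of squamous and other epithelia, was at 6388 and 4777 FPKM in HCC4006, against 26.1 and 22.5 FPKM in PC9, a difference of 7.77 ± 0.22 (adjusted p = 5.57e-10). CEACAM6, a cell surface adhesion protein, was at 2078 and 2691 FPKM in HCC4006 and at 13.8 and 12.4 FPKM in PC9 (7.39 ± 0.23, adjusted p = 7.08e-10). CCL2, a chemokine that attracts monocytes, was at 191 and 235 FPKM in HCC4006 and was listed at 0 in both PC9 libraries (adjusted p = 7.08e-10). The lines did not overlap at any of these genes, which the rule for picking them required. Of the 11281 genes tested, 6093 were called without overlap (54%). SERPINA1, the antitrypsin of plasma, was at 138 and 165 FPKM in HCC4006 and listed at 0 in both PC9 libraries. TNC, a matrix glycoprotein, was at 68.2 and 64.2 FPKM in HCC4006, against 0.01 FPKM in the first PC9 library and 0 in the second. The other genes among the 15 largest differences were CAT, the interferon-induced IFI27 and IFITM2, IFI27L2, the cancer-testis genes XAGE1B and CT83, the metallothioneins MT1E, MT1L and MT1P3, and RPS4XP22, a processed copy of a ribosomal protein gene. Reads of metallothionein, IFITM, XAGE1 and ribosomal protein copies can fall on near-identical sequences, so how they divide among these genes is uncertain.

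In the opposite direction, AKR1C1, an aldo-keto reductase that reduces steroids and xenobiotic ketones, was at 0.395 and 0.275 FPKM in HCC4006, against 1981 and 1723 FPKM in PC9. This was the lowest difference of all called genes, -10.44 ± 0.23 (adjusted p = 1.42e-10). KRT13, a keratin of stratified epithelium, was at 0.21 and 0.34 FPKM in HCC4006 and at 1081 and 961 FPKM in PC9 (-9.65 ± 0.27, adjusted p = 5.14e-10). UCHL1, a ubiquitin hydrolase abundant in neurons, was at 6.59 and 7.8 FPKM in HCC4006 and at 1754 and 1637 FPKM in PC9 (-7.7 ± 0.23, adjusted p = 6.38e-10). All 3 were abundant in PC9 and low in HCC4006. SPP1, which encodes the matrix protein osteopontin, was listed at 0 in both HCC4006 libraries and was at 263 and 226 FPKM in PC9. TRIM29, MAL, S100P, GPX2, UGT1A6, AKR1B10, AKR1C2, AKR1C3, the cancer-testis genes MAGEA3 and MAGEA6, and the mitochondrial gene copy MTND4P24 completed the 15 most negative. AKR1C1 and AKR1C2, MAGEA3 and MAGEA6, and UGT1A6 with its neighbours in the UGT1A cluster share long stretches of sequence, and the division of reads within each set is uncertain. Among tested genes, 101 were listed at 0 in both PC9 libraries with at least 1 FPKM in both HCC4006 libraries, and 54 were listed at 0 in both HCC4006 libraries with at least 1 FPKM in both PC9 libraries.

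Genes of the lung lineage were mostly higher in HCC4006. NKX2-1, the homeobox factor of thyroid and distal lung, was at 1.34 and 2.77 FPKM in HCC4006 and listed at 0 in both PC9 libraries (adjusted p = 0.000251). It was at 2.1 and 2.21 FPKM in untreated HCC827. SFTA2, a surfactant-associated protein, was at 27.4 and 32.3 FPKM in HCC4006 and listed at 0 in both PC9 libraries (adjusted p = 2.66e-08). NAPSA, an aspartic protease of alveolar cells that processes surfactant protein B, was at 8.8 and 7.5 FPKM in HCC4006 and at 0.145 and 0.07 FPKM in PC9 (3.04 ± 0.25, adjusted p = 1.94e-06, and 0.0669 with all 12 libraries). LPCAT1, an enzyme of surfactant lipid synthesis, was at 15.7 and 22.2 FPKM in HCC4006 and at 0.585 and 0.675 FPKM in PC9 (3.59 ± 0.27, adjusted p = 9.28e-07). These levels were low in absolute terms, and SFTPC, the surfactant protein specific to alveolar type 2 cells, was listed at 0 in all 4 libraries. Of 35 alveolar and airway genes found, 12 passed the filter, of which 9 were called higher and 2 lower (7 and 2 with all 12 libraries), with a median of 2.33 against 0.44 over all tested genes. The lower ones were KRT5, the basal cell keratin, and CAV1, a coat protein of plasma membrane caveolae marking type 1 cells, at 99.9 and 142 FPKM in HCC4006 and 920 and 836 FPKM in PC9. A listed member that passed the filter through 1 line alone had to differ, so list counts here and below describe those members only. Each list count is to be set beside the shares over all tested genes, 39.5% called higher and 14.5% lower.

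Keratins were mostly lower in HCC4006. Of 17 keratins listed, 14 passed the filter, of which 10 were called lower and 3 higher (6 and 0 with all 12 libraries), with a median of -2.36. The lower set held the basal and squamous keratins and also the simple epithelial pair: KRT8 was at 941 and 841 FPKM in HCC4006 and at 7250 and 6645 FPKM in PC9 (-2.96 ± 0.2, adjusted p = 4.47e-07, and 0.292 with all 12 libraries). KRT17, induced in basal and injured epithelium, was at 1.23 and 1.38 FPKM in HCC4006 and at 86.2 and 70.9 FPKM in PC9 (-5.1 ± 0.27, adjusted p = 5.18e-08). KRT5 was at 0.235 and 0.205 FPKM in HCC4006 and at 65.6 and 51.4 FPKM in PC9 (-5.6 ± 0.27, adjusted p = 2.66e-08). KRT7, a keratin of glandular epithelium, went against these and was at 6909 and 5530 FPKM in HCC4006 and at 1388 and 2428 FPKM in PC9 (1.75 ± 0.27, adjusted p = 0.000253, and 0.301 with all 12 libraries). KRT19 was not called, with 2446 and 2533 FPKM in HCC4006 and 2380 and 2014 FPKM in PC9.

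HCC4006 combined a higher level of E-cadherin with higher levels of several mesenchymal genes. CDH1, which encodes E-cadherin of epithelial junctions, was at 38.4 and 83.4 FPKM in HCC4006 and at 6.68 and 5.22 FPKM in PC9 (3.06 ± 0.31, adjusted p = 1.14e-05). VIM, the gene of the intermediate filament vimentin, was at 217 and 184 FPKM in HCC4006 and at 11.7 and 10.8 FPKM in PC9 (4.04 ± 0.22, adjusted p = 5.74e-08). TGFBI, a matrix protein induced by TGF-beta, was at 4021 and 2891 FPKM in HCC4006 and at 180 and 190 FPKM in PC9 (4.2 ± 0.21, adjusted p = 3.82e-08). Neither line overlapped the other at these 3 genes, as at 6093 of the 6095 genes called. Of 24 genes of the epithelial to mesenchymal transition, 15 passed the filter, of which 10 were called higher and 3 lower (7 and 1 with all 12 libraries), with a median of 1.48. MMP2, a gelatinase, and SNAI2, a repressor of E-cadherin, were among the higher ones, while S100A4, CALD1 and TAGLN were lower, the last 2 with an adjusted p of 0.241 and 0.662 with all 12 libraries. ZEB1, another such repressor, was below the filter in both lines, at 0.19 and 0 FPKM in HCC4006 and 0.03 and 0.29 FPKM in PC9. Of 20 epithelial genes found, 16 passed, with 6 called higher and 4 lower (2 and 0 with all 12 libraries). Over all tested genes, 39.5% were called higher and 14.5% lower. GRHL2, a factor that maintains epithelial genes, was lower at 1.34 and 1.84 FPKM in HCC4006 against 8.86 and 10.5 FPKM in PC9 (adjusted p = 0.000126, and 0.157 with all 12 libraries). EPCAM was not called.

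**Figure D2:**
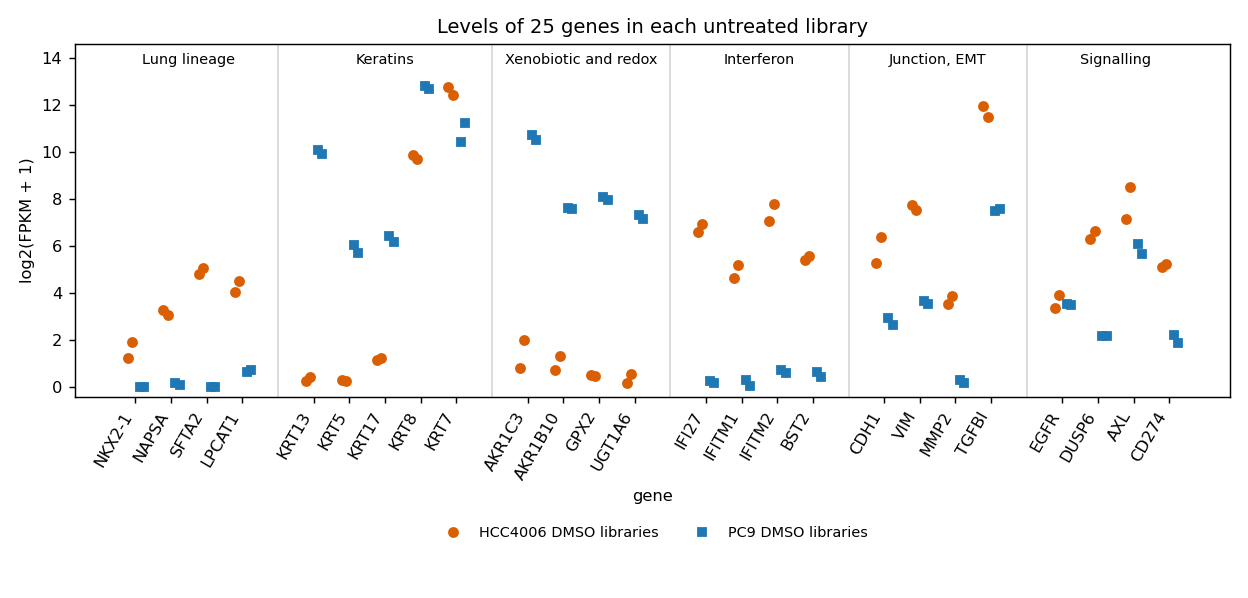
Each point is 1 untreated library, with log2(FPKM + 1) on the vertical axis and genes along the horizontal axis in 6 groups; orange circles are the 2 HCC4006 libraries and blue squares the 2 PC9 libraries. The lines are apart at every gene shown except EGFR, at which they overlap. The keratins other than KRT7 and the 4 redox genes are lower in HCC4006 than in PC9, with KRT8 high in both lines. The lung lineage and interferon genes are near 0 in PC9.

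TGF-beta genes and matrix proteases were mostly higher in HCC4006, whereas collagens and laminin chains differed in both directions. COL4A1, a chain of basement membrane collagen, was at 36 and 33.5 FPKM in HCC4006 and at 0.295 and 0.325 FPKM in PC9 (4.77 ± 0.25, adjusted p = 4.6e-08). Its partner COL4A2 was at 25.5 and 14.9 FPKM in HCC4006 and at 0 and 0.055 FPKM in PC9. PLAUR, the receptor of the protease urokinase, was at 242 and 274 FPKM in HCC4006 and at 21.1 and 18.9 FPKM in PC9 (3.63 ± 0.21, adjusted p = 1.27e-07). PLAU, urokinase itself, was higher too, at 249 and 269 FPKM in HCC4006 against 31.3 and 31.9 FPKM in PC9, so that receptor and ligand differed in the same direction, although the adjusted p of PLAU was 0.177 with all 12 libraries. Of 23 matrix proteases and inhibitors, 14 passed the filter, with 9 called higher and 3 lower (median 1.74; 5 and 2 with all 12 libraries); the lower ones were the inhibitors SERPINE2, TIMP3 and SERPINB5 (0.148 for the last with all 12 libraries, adjusted p). Of 22 collagens, 9 passed, with 5 called higher and 4 lower (4 and 2 with all 12 libraries). Of 11 laminin chains, 8 passed, with 3 called higher, 2 lower and 3 not called (0 and 2 with all 12 libraries). Of 30 TGF-beta and BMP genes, 19 passed, with 14 called higher and 3 lower (5 and 1 with all 12 libraries), with a median of 1.35. INHBA, the activin A subunit, was lower, at 0.39 and 0.55 FPKM in HCC4006 and 8.34 and 7.46 FPKM in PC9. FST, which binds activin, was higher, at 3.88 and 9.46 FPKM in HCC4006 and 0.075 and 0.305 FPKM in PC9. THBS1, a matrix glycoprotein often counted as a target of the co-activator YAP, was at 689 and 155 FPKM in HCC4006 and 229 and 242 FPKM in PC9, and was not called; the HCC4006 libraries lay on either side of PC9.

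Interferon-stimulated genes were mostly higher in HCC4006. Interferon acts through factors such as STAT2 and IRF9, which bind a short element in the promoters of their targets. IFI27, a mitochondrial protein strongly induced by type I interferon, was at 95.6 and 124 FPKM in HCC4006 and at 0.2 and 0.15 FPKM in PC9 (6.55 ± 0.23, adjusted p = 2.04e-09). BST2, the tetherin that holds budding virus at the cell surface, was at 42 and 47.5 FPKM in HCC4006 and at 0.565 and 0.34 FPKM in PC9 (4.98 ± 0.27, adjusted p = 5.74e-08). IFITM1, which blocks viral fusion, was at 24.2 and 35.4 FPKM in HCC4006 and at 0.25 and 0.03 FPKM in PC9 (4.74 ± 0.3, adjusted p = 2.15e-07). These genes were close to absent in PC9. Of 32 genes of this list, 25 passed the filter, of which 18 were called higher and 2 lower (9 and 0 with all 12 libraries), with a median of 1.7. Of these, IRF9 was at 16.4 and 16.3 FPKM in HCC4006 and at 2.74 and 2.84 FPKM in PC9 (2.2, adjusted p = 2.61e-05), and STAT2 was not called. Not all members followed: IFI35 and MX2 were lower, and the antiviral genes OAS1, OAS3 and MX1 were not called. With all 12 libraries the adjusted p was 0.283 for IFI35 and 0.0991 for MX2.

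The promoters of these genes were read for the interferon-stimulated response element, searched on both strands as GAAA, any 2 bases, GAAA. RefSeq windows of 250 bases before to 50 after the start of a gene (GRCh38.p14) were at hand for 18 of the 25 tested genes, and 14 of the 18 held the element (77.8%), as did 12 of the 13 called higher with a window. It was in the windows of 4.38% of the 27305 genes with one. The windows of 3 genes with large differences are shown with the element in capitals; in BST2 the 2 matches overlap. That of IFI27 is chr14:94110486-94110785 (plus strand), that of IFITM1 chr11:313790-314089 (plus strand) and that of BST2 chr19:17405581-17405880 (minus strand). A match describes the letters of the window and does not show binding.
IFI27: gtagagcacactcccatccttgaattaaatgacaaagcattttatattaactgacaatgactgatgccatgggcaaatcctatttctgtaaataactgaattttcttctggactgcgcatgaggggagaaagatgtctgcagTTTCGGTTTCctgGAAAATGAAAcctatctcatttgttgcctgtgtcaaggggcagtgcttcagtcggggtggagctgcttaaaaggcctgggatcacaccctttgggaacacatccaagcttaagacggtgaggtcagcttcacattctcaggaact
IFITM1: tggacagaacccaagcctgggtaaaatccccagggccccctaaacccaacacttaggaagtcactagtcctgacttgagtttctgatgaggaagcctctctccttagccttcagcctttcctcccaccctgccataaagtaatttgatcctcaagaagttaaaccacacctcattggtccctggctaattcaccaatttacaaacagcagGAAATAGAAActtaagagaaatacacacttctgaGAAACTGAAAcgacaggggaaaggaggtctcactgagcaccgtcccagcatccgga
BST2: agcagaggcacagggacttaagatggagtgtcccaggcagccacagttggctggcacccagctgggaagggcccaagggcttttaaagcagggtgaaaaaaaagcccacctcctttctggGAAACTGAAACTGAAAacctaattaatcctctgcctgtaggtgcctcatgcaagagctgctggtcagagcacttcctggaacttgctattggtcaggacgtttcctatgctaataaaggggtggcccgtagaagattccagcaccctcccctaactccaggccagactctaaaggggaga

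Antigen presentation genes differed in both directions. B2M, the light chain shared by class I molecules, was at 3887 and 5128 FPKM in HCC4006 and at 1424 and 1312 FPKM in PC9 (1.71 ± 0.18, adjusted p = 1.72e-05, and 0.123 with all 12 libraries). HLA-C, a class I heavy chain, was at 68.8 and 51.5 FPKM in HCC4006 and at 286 and 206 FPKM in PC9 (-2.01 ± 0.25, adjusted p = 4.74e-05, and 0.188 with all 12 libraries). The light and heavy chains thus differed in opposite directions. All 15 class I genes passed the filter, with 1 called higher and 7 lower, and with all 12 libraries 0 higher and 1 lower; HLA-B, HLA-F and the immunoproteasome genes PSMB8 and PSMB9 were among the lower ones, and HLA-F was the one that kept its call. HLA genes resemble each other, and how reads divide among them is uncertain. Of 13 class II genes, 6 passed, with 5 called higher and 1 lower (2 and 1 with all 12 libraries). CD74, the invariant chain of class II, was at 117 and 157 FPKM in HCC4006 and at 16.9 and 16.6 FPKM in PC9 (2.94 ± 0.24, adjusted p = 1.82e-06). CD274, which encodes the checkpoint ligand PD-L1, was at 33.6 and 36.5 FPKM in HCC4006 and at 3.62 and 2.67 FPKM in PC9 (3.13 ± 0.31, adjusted p = 8.46e-06). Of 15 checkpoint genes found, 10 passed and 7 were called higher (3 with all 12 libraries), none lower; after median of ratios scaling 6 were higher and 1 lower.

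Genes of the NRF2 programme and related reductases were mostly lower in HCC4006. NRF2 drives glutathione, thioredoxin and pentose phosphate genes when its partner KEAP1 no longer directs it to breakdown. AKR1C3, which reduces prostaglandins and steroids, was at 0.785 and 3.02 FPKM in HCC4006 and at 1686 and 1480 FPKM in PC9 (-9.2 ± 0.32, adjusted p = 1.49e-09). GPX2, a glutathione peroxidase of epithelia, was at 0.425 and 0.39 FPKM in HCC4006 and at 274 and 248 FPKM in PC9 (-7.54 ± 0.25, adjusted p = 1.17e-09). AKR1B10, a reductase of retinal and lipid aldehydes, was at 0.69 and 1.51 FPKM in HCC4006 and at 197 and 188 FPKM in PC9 (-6.55 ± 0.27, adjusted p = 8.72e-09). GPX2 was below 1 FPKM in both HCC4006 libraries, and AKR1C3 and AKR1B10 were below it in the first alone. TXNRD1, thioredoxin reductase, was at 32.3 and 41.5 FPKM in HCC4006 and 440 and 397 FPKM in PC9. SLC7A11, the cystine importer, was at 0.195 and 0.185 FPKM in HCC4006 and 9.84 and 8.06 FPKM in PC9. Of 34 genes listed, 32 passed the filter, of which 22 were called lower and 5 higher (16 and 1 with all 12 libraries), with a median of -1.42, and the list's summed FPKM was 924 and 1110 in HCC4006 against 10276 and 9409 in PC9.

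Within this list the size of the difference was uneven. NQO1, a common marker of NRF2 activity, was at 382 and 413 FPKM in HCC4006 and 872 and 829 FPKM in PC9, a difference of -1.1 (adjusted p = 0.000491, and 0.37 with all 12 libraries), and GCLC and SRXN1, also NRF2 targets, were not called. CYP24A1, the enzyme that degrades active vitamin D, was higher, at 52.2 and 115 FPKM in HCC4006 against 1.31 and 1.07 FPKM in PC9. KEAP1 was itself lower in HCC4006, at 21.7 and 22.4 FPKM against 81.3 and 66.5 FPKM in PC9 (-1.69 ± 0.24, adjusted p = 0.000137, and 0.324 with all 12 libraries). The iron storage genes FTL and FTH1 were lower as well (FTH1 adjusted p = 0.000549, and 0.483 with all 12 libraries); FTL was at 995 and 1122 FPKM in HCC4006 and 7165 and 7418 FPKM in PC9 (-2.79 ± 0.19, adjusted p = 4.17e-07, and 0.197 with all 12 libraries). CAT, catalase, went the other way, at 252 and 357 FPKM in HCC4006 and 6.43 and 5.36 FPKM in PC9 (5.45 ± 0.25, adjusted p = 1.82e-08).

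The core of the antioxidant response element, searched as TGACNNNGC on both strands, was in the RefSeq window of 7 of 23 tested genes of this list that had one (30.4%), of 6 of the 16 called lower with a window, and of 16.1% of all genes with one. Windows of a peroxidase and a reductase that were both lower are shown with the core in capitals. That of GPX2 is chr14:64942696-64942995 (minus strand) and that of TXNRD1 chr12:104215529-104215828 (plus strand), both in GRCh38.p14.
GPX2: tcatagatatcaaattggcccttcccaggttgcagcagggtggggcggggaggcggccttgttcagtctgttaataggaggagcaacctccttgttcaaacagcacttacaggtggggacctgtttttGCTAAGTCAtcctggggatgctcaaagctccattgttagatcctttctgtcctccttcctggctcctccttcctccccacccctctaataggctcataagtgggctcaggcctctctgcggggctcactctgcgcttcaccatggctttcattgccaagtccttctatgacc
TXNRD1: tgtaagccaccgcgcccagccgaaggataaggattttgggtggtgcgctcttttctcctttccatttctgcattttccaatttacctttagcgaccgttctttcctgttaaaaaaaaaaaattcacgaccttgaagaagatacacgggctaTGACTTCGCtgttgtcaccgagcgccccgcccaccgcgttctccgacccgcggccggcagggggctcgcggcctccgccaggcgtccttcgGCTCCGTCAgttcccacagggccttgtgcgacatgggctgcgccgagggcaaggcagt

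Cholesterol synthesis genes were mostly higher in HCC4006. Of 23 listed, 21 passed the filter, of which 17 were called higher and 0 lower, with a median of 1.61. EBP, a sterol isomerase late in the pathway, was at 157 and 269 FPKM in HCC4006 and at 59.8 and 45.9 FPKM in PC9 (1.95 ± 0.27, adjusted p = 9.85e-05, and 0.22 with all 12 libraries). INSIG1, a sterol-regulated brake of the pathway, was at 4.64 and 7.94 FPKM in HCC4006 and 0.29 and 0.585 FPKM in PC9 (2.31 ± 0.28, adjusted p = 3.77e-05). With median of ratios scaling 13 were higher and 1 was lower, and with all 12 libraries 2 were higher. In dormant cells, 6 of the 17 were called in the same direction.

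Levels of EGFR, the receptor that osimertinib inhibits, overlapped between the lines. EGFR was at 9.33 and 14.1 FPKM in HCC4006 and at 10.6 and 10.3 FPKM in PC9, with a difference of 0.13 ± 0.3 (adjusted p = 0.745), which was -0.37 after median of ratios scaling. It was at 80.9 and 83.8 FPKM in untreated HCC827. ERBB2, MET and IGF1R, receptors known to replace EGFR signalling, were not called either. AXL, another such receptor, was at 140 and 366 FPKM in HCC4006 and at 67.4 and 49.2 FPKM in PC9 (1.96 ± 0.41, adjusted p = 0.0018, and 0.354 with all 12 libraries), and its ligand GAS6 was at 12 and 11.8 FPKM in HCC4006 and 2.52 and 2.53 FPKM in PC9 (adjusted p = 0.000232, and 0.107 with all 12 libraries). Of 38 receptors and ligands able to bypass EGFR, 19 passed the filter, with 9 called higher and 1 lower. The counts were 4 and 0 with all 12 libraries, and 8 and 2 after median of ratios scaling. Over all tested genes, 39.5% were called higher and 14.5% lower. NRG1, the ligand of ERBB3, was higher at 1.72 and 2.38 FPKM in HCC4006 against 0.08 and 0 FPKM in PC9, while ERBB3 itself was lower, at 2.7 and 3.1 FPKM in HCC4006 against 5.19 and 6.33 FPKM in PC9 (adjusted p = 0.0225, and 0.263 with all 12 libraries). The adjusted p of ERBB3 was 0.0692 without the first PC9 library and 0.176 without the second. Of 9 tested genes around EGFR on chromosome 7, itself included, 5 were called higher in HCC4006 and 0 lower. After median of ratios scaling 4 were higher and 1 lower, and with all 12 libraries 0 were called in either direction. Among the 5 was SEC61G, at 1161 and 1432 FPKM in HCC4006 and 383 and 354 FPKM in PC9 (adjusted p = 1.42e-05, and 0.198 with all 12 libraries).

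Genes read as output of ERK, the kinase below EGFR and MEK, differed in both directions. DUSP6, a phosphatase induced by ERK that switches it off, was at 78.4 and 98.7 FPKM in HCC4006 and at 3.54 and 3.58 FPKM in PC9 (4.29 ± 0.25, adjusted p = 1.32e-07). PHLDA1, also induced by ERK, was at 11.4 and 36.7 FPKM in HCC4006 and at 1.17 and 1.08 FPKM in PC9 (3.35 ± 0.4, adjusted p = 4.05e-05). MYC, the growth factor-induced transcription factor, was at 5.2 and 6.18 FPKM in HCC4006 and at 19.3 and 16.5 FPKM in PC9 (-1.5 ± 0.25, adjusted p = 0.000394, and 0.086 with all 12 libraries). Of 24 genes, 17 passed the filter, with 7 called higher and 4 lower (3 and 0 with all 12 libraries). The shares over all tested genes were 39.5% higher and 14.5% lower, and the list median, 0.57, was near that of all tested genes. FOSL1, DUSP4 and ETV5 were not called. ERRFI1, a feedback inhibitor of EGFR, was at 8.96 and 14.3 FPKM in HCC4006 and 1.42 and 1.11 FPKM in PC9 (2.45 ± 0.28, adjusted p = 2.6e-05).

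The co-activators YAP1 and WWTR1 were not called, with YAP1 at 0.95 and 2.04 FPKM in HCC4006 and 1.23 and 1.58 FPKM in PC9. Of 24 Hippo and TEAD components, 17 passed the filter, with 2 called higher, 5 lower and 10 not called, and a median of 0.02. With all 12 libraries 0 were higher and 3 lower, and after median of ratios scaling 1 was higher and 7 were lower. VGLL1, which binds TEAD factors in place of YAP, was at 0 and 0.415 FPKM in HCC4006 and at 73.7 and 64.6 FPKM in PC9 (-5.88 ± 0.29, adjusted p = 2.66e-08). TEAD4, a DNA-binding partner of YAP, was at 1.47 and 1.25 FPKM in HCC4006 and at 9.51 and 10.1 FPKM in PC9 (-2.2 ± 0.28, adjusted p = 5.46e-05). TEAD1, another such partner, was at 1.41 and 2.76 FPKM in HCC4006 and at 1.4 and 1.23 FPKM in PC9 and was not called (adjusted p = 0.302). NF2, an upstream inhibitor of YAP, was at 60.5 and 92.4 FPKM in HCC4006 and at 14.6 and 12.2 FPKM in PC9 (2.4 ± 0.31, adjusted p = 5.82e-05, and 0.315 with all 12 libraries). Of 25 YAP and TEAD targets, 21 passed the filter, with 9 called higher and 2 lower and a median of 0.48. The counts were 3 and 0 with all 12 libraries, and 8 and 4 after median of ratios scaling. Over all tested genes, 39.5% were called higher and 14.5% lower, with a median of 0.44. CYR61, a secreted target, was at 44.1 and 46.5 FPKM in HCC4006 and at 6.01 and 8.16 FPKM in PC9. Of the BH3-only genes that start cell death, PMAIP1 was higher, at 8.52 and 18.1 FPKM in HCC4006 against 1.82 and 1.73 FPKM in PC9 (adjusted p = 0.000173, and 0.0566 with all 12 libraries). BIK and BCL2L11 were lower (BIK adjusted p = 0.000196, and 0.0863 with all 12 libraries); BCL2L11, which encodes BIM, was at 0.505 and 0.925 FPKM in HCC4006 and 2.08 and 1.94 FPKM in PC9 (-0.82 ± 0.26, adjusted p = 0.018, and 0.155 with all 12 libraries). Its adjusted p was 0.105 without the first PC9 library, 0.085 without the second and 0.0596 without the first HCC4006 library. MCL1, which restrains these genes' products, was at 5.46 and 9.55 FPKM in HCC4006 and 2.09 and 2.03 FPKM in PC9 (1.43 ± 0.3, adjusted p = 0.0018, and 0.0873 with all 12 libraries).

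Tumour suppressors of lung cancer differed in both directions. Of 19 listed, 15 passed the filter, with 5 called higher, 4 lower and 6 not called (0 and 2 with all 12 libraries), against 54% of all tested genes called. CDKN2A, whose products restrain CDK4 and MDM2, was listed at 0 in both HCC4006 libraries and was at 26.1 and 38.6 FPKM in PC9 (adjusted p = 1.01e-07). Its neighbour MTAP was present in both lines, at 26.2 and 33.6 FPKM in HCC4006 and 9.64 and 8.09 FPKM in PC9 (1.64 ± 0.24, adjusted p = 0.000154, and 0.0571 with all 12 libraries). CDKN2B, on its other side, was below the filter, listed at 0 in both HCC4006 libraries and at 0.44 and 0.935 FPKM in PC9. FAS, the death receptor, was at 12.7 and 17.3 FPKM in HCC4006 and 1.42 and 1.54 FPKM in PC9.

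Growth markers had list medians close to that of all tested genes. All 25 mitosis genes passed the filter, with 9 called higher and 1 lower, a median of 0.57, and 6 higher and 3 lower after median of ratios scaling; none was called with all 12 libraries. AURKA, the kinase of spindle poles, was the largest, at 169 and 256 FPKM in HCC4006 and 39.9 and 31.9 FPKM in PC9 (2.51 ± 0.26, adjusted p = 1.35e-05, and 0.0671 with all 12 libraries). Of 25 S phase genes, 24 passed, with 7 called higher and 3 lower, 5 and 7 after median of ratios scaling and none with all 12 libraries. Cancer-testis genes, which are silent in most adult tissues, were split between the lines: of 30 found, 10 passed the filter, and 3 were called higher and 7 lower. PRAME was at 8.22 and 9.15 FPKM in HCC4006 and at 0 and 0.02 FPKM in PC9. MAGEA12 was at 0 and 0.04 FPKM in HCC4006 and at 37 and 29.2 FPKM in PC9. HOX genes, which record position along the body axis, were mostly below the filter, and 5 of the 6 that passed were called higher in HCC4006, among them HOXC10 at 5.01 and 6.07 FPKM in HCC4006 and 0.13 and 0.065 FPKM in PC9.

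**Figure D3:**
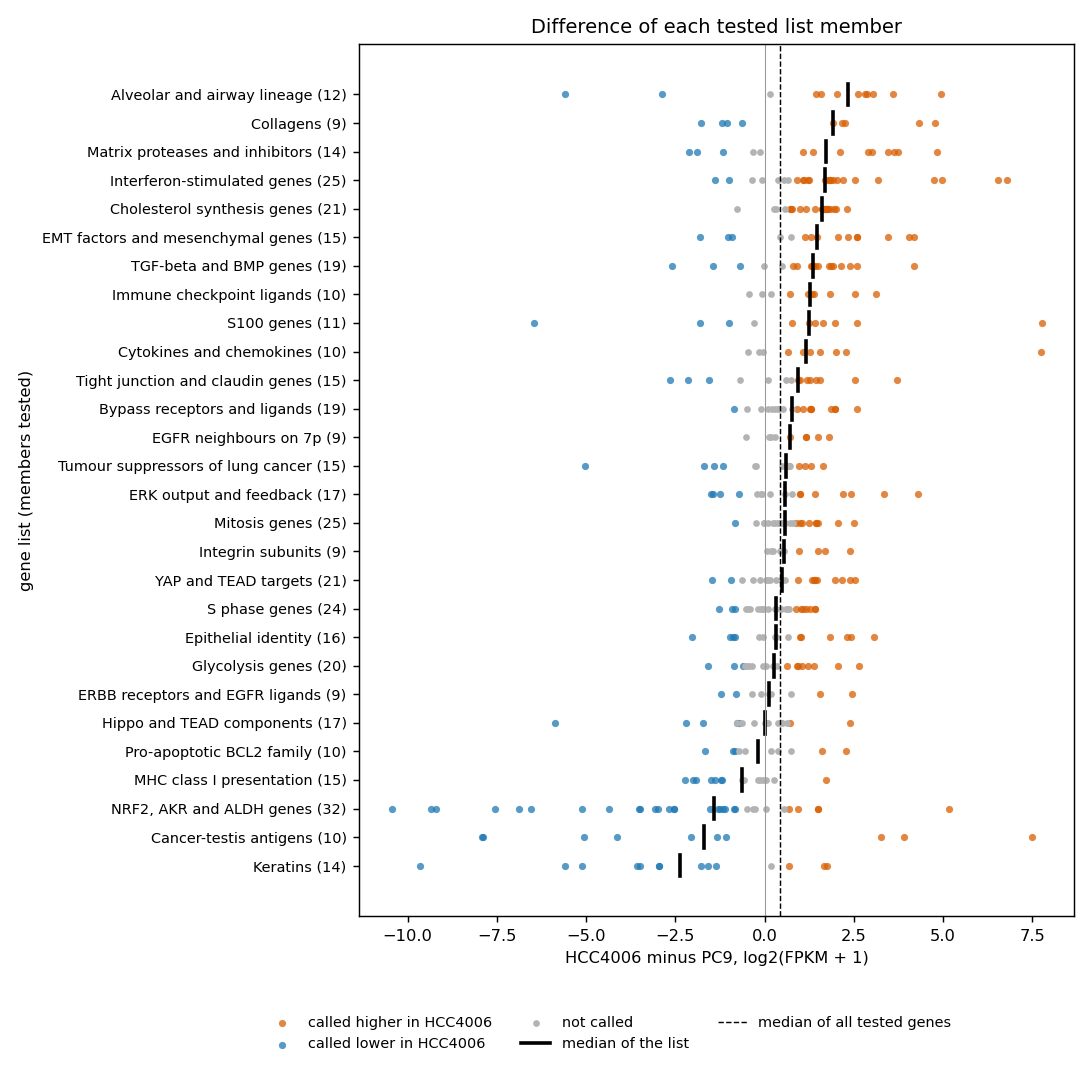
Each point is 1 tested member of one of the gene lists shown, each with at least 9 tested members, placed by its HCC4006 minus PC9 difference in log2(FPKM + 1); orange marks members called higher in HCC4006, blue those called lower, grey those not called, black bars the list medians and the dashed line the median of all tested genes, 0.44. Alveolar and airway genes (median 2.33) stand at the top and keratins (median -2.36) at the bottom.

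Placed in the order of genes along the chromosomes, a small share of the differences fell in long stretches. This view was chosen after the values were seen, and the stretches were picked for their differences, so they carry no test. In 8952 windows of 15 neighbouring protein-coding genes, 106 had a median at least 1.5 above the overall median of 0.48, and 32 had a median at least 1.5 below it. The longest stretch of high windows, on chromosome 14 between SNW1 and HSP90AA1, held 61 genes, of which 56 were called higher and 2 lower, with a median of 2.57. It contained genes with unrelated roles: PSMC1, a proteasome subunit, was at 898 and 1084 FPKM in HCC4006 and 37 and 23.9 FPKM in PC9, and IFI27, IFI27L2 and SERPINA1 lie there too. Of these 61 genes, 38 were called higher with all 12 libraries. In dormant cells 54 of them were called higher, 53 of them in both states. Another stretch on this chromosome, from SDR39U1 to SLC25A21, held 29 genes, of which 27 were called higher (15 with all 12 libraries), NKX2-1 and SFTA3 among them, and that from ABHD12B to ATG14 held 24, with 20 called higher (11 with all 12 libraries). Untreated HCC827 was near HCC4006 at some genes of these stretches and near PC9 at others. SRP54 was at 46.1 and 89.6 FPKM in HCC827, 50.8 and 93.7 FPKM in HCC4006 and 8.54 and 7.17 FPKM in PC9. IFI27L2 was at 0.525 and 0.73 FPKM in HCC827, 78.2 and 86.9 FPKM in HCC4006 and 0.785 and 1.05 FPKM in PC9. The median of all tested protein-coding genes of chromosome 14 was 1.12, the highest of any chromosome, followed by 1.08 on X.

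On chromosome 11, the stretch from ARL14EP to TTC17 held 33 genes, 26 of them called higher (19 with all 12 libraries), with a median of 2.16 and a window as high as 3.22. EIF3M, a subunit of a translation initiation factor, was at 5926 and 7760 FPKM in HCC4006 and at 261 and 206 FPKM in PC9 (4.87 ± 0.2, adjusted p = 8.96e-09). It was at 287 and 394 FPKM in untreated HCC827, so that at this gene HCC4006 stood apart from both other lines. CAT and the surface proteins CD59 and CD44 lie in the same stretch, and so does PAX6, which was lower. Stretches from TRIM68 to TMEM9B and from ADM to BTBD10 on chromosome 11 and from GLA to RBM41 on X held 23, 15 and 23 genes, with 20, 13 and 22 called higher (10, 8 and 16 with all 12 libraries). These 7 stretches held 208 genes, of which 184 were called higher, 4.85% of the 3797 protein-coding genes called higher, and 4 of the 208 were among the 15 largest differences (CAT, IFI27, IFI27L2 and SERPINA1). Another 7 stretches were low, with medians between -0.78 and -1.04, and held 85 of the 1253 protein-coding genes called lower (6.78%). DNA was not analysed here.

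**Figure D4:**
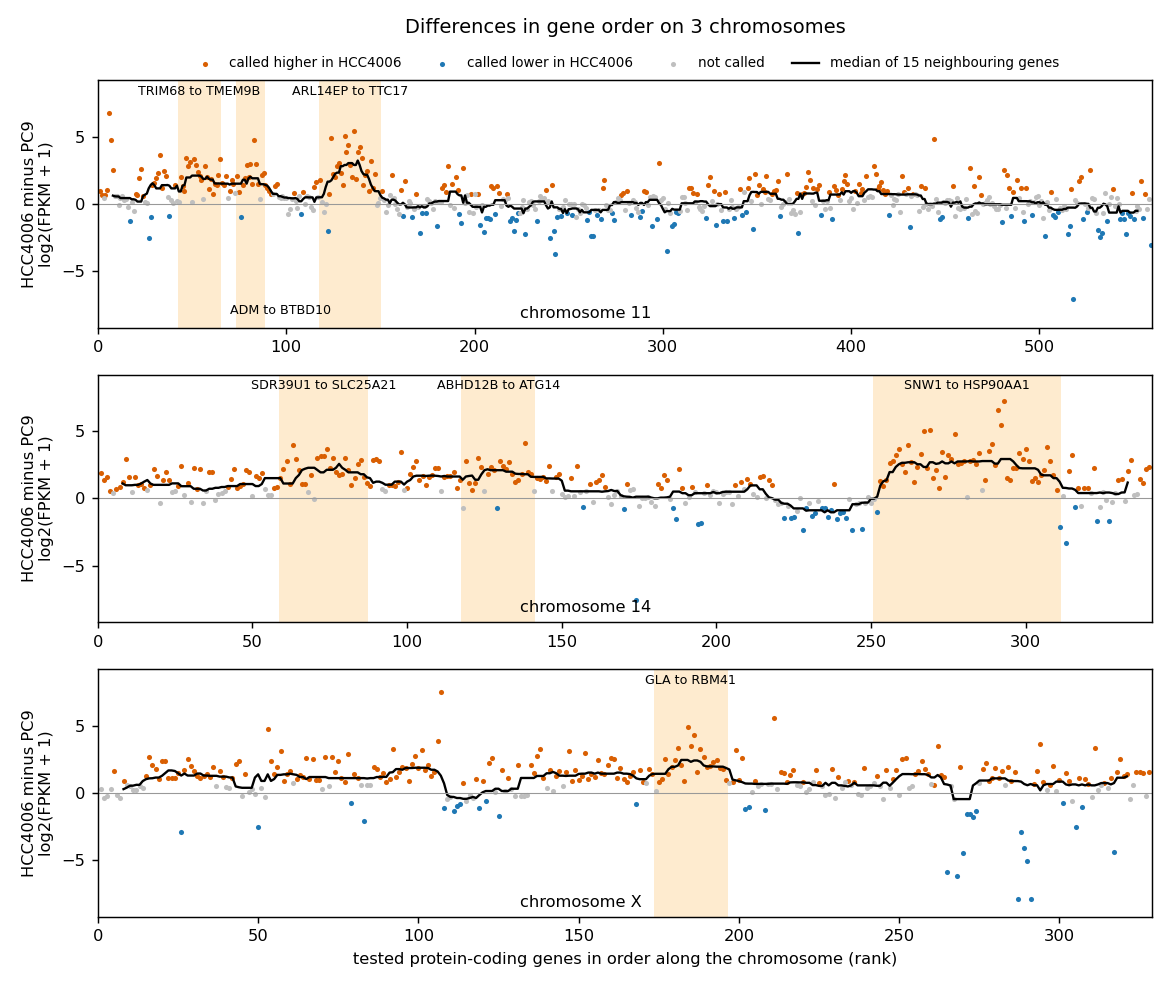
Each point is 1 tested protein-coding gene of chromosome 11, 14 or X, in order along the chromosome on the horizontal axis, with its HCC4006 minus PC9 difference in log2(FPKM + 1) on the vertical axis; orange marks genes called higher in HCC4006, blue those called lower, grey those not called, and the black line is the median of 15 neighbouring genes. Shaded stretches are those whose windows were at least 1.5 above the median of 0.48; the SNW1 to HSP90AA1 stretch has a median of 2.57.

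The difference between the lines was also measured in other libraries of the same lines, those of dormant cells. With 1 dormant HCC4006 library and 2 dormant PC9 libraries in the fit, 4852 genes were called higher in HCC4006 and 1105 lower (52.8% of genes tested, 43% higher and 9.8% lower). The lone HCC4006 library is assumed to vary like the others. The median difference over all tested genes was 0.67 in dormant cells, against 0.44 in untreated cells, so both comparisons lean toward higher values in HCC4006. They also share 1 estimate of spread per gene, so calls in the 2 states are not independent. Of the 6095 genes called in untreated cells, 4216 were called in the same direction in dormant cells, 69.2% of these and 70.8% of the 5957 called in dormant cells, and 76 were called in opposite directions. Among the 1013 called genes with a difference of at least 2 in size in untreated cells, 918 were called in the same direction in dormant cells (90.6%) and 7 in the opposite one. AKR1C1 differed by -10.48 in dormant cells, KRT13 by -9.93 and S100A2 by 6.18. The change of the difference between states was called for 623 genes (5.52% of genes tested, 3.51% with a positive change and 2.01% with a negative one), and this count fell to 68 with all 12 libraries.

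Some of the identity genes named above were among those whose line difference changed. KRT5 differed by -0.98 in dormant cells, at 0.535 FPKM in HCC4006 and 2.76 and 1.46 FPKM in PC9, against -5.6 in untreated cells (change 4.61, adjusted p = 0.000123, and 0.00371 with all 12 libraries). DUSP6 was at 0.255 FPKM in dormant HCC4006 and listed at 0 in both dormant PC9 libraries, and the change of its difference was -3.96 (adjusted p = 0.000185, and 0.337 with all 12 libraries, in which the doubted dormant HCC4006 library had 4.25 FPKM). The difference of VIM was larger in dormant cells, 7.28, with 504 FPKM in HCC4006 and 2.04 and 2.48 FPKM in PC9 (change 3.25, adjusted p = 0.000218, and 0.127 with all 12 libraries). CDH1 kept its direction at 1.17, with 51.8 FPKM in dormant HCC4006 and 23.3 and 21.7 FPKM in dormant PC9 (change -1.89, adjusted p = 0.0477, and 0.341 with all 12 libraries). MMP7, a secreted protease, reached 810 FPKM in dormant HCC4006, against 0 and 0.03 FPKM in dormant PC9; it was at 23.8 and 42.7 FPKM in untreated HCC4006 and 0.03 and 0.325 FPKM in untreated PC9 (change 4.82, adjusted p = 0.000185, and 0.00665 with all 12 libraries).

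**Figure D5:**
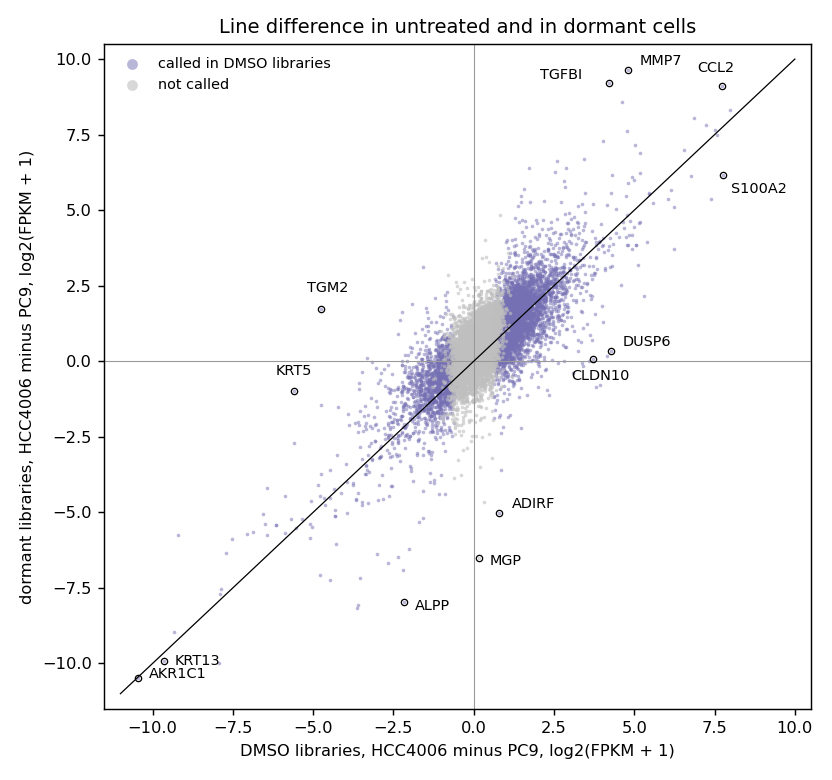
Each point is 1 tested gene, with its HCC4006 minus PC9 difference in log2(FPKM + 1) in untreated libraries on the horizontal axis and in dormant libraries on the vertical axis; purple marks genes called in untreated cells and grey the others, and the line marks equal differences. AKR1C1 (-10.44 untreated, -10.48 dormant) and KRT13 lie on the line, while KRT5, DUSP6, TGM2 and MGP lie far from it.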

How the data were processed

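RNA-seq values were deposited as FPKM per gene, made with STAR 2.5.1b and Cufflinks 2.2.1 on hg19 (GRCh37), per the submitters' processing notes, which also name DESeq2 1.10.1 with no role given. The authors deposited 24 value columns rounded to 0.01 FPKM, 2 for each of 12 libraries (R1 and R2, whose meaning is not given in the sources used here), and these were averaged. Of 57905 genes, 27 whose symbols had become dates were named by their ID from GENCODE release 29.

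From these, log2(FPKM + 1) was computed, and a linear model with an intensity trend in the variance prior (limma 3.58.1, R 4.3.3) was fitted to 10 libraries in 6 groups without a block. A gene was tested where 2 or more of the 4 DMSO libraries reached 1 FPKM. P-values are two-sided and adjusted by the method of Benjamini and Hochberg. On simulated data for HCC4006 DMSO minus PC9 DMSO over 11281 genes, 100 genes were changed by 1 and 100 by 2 on the log2 scale. Of the changes of 1, 13% were recovered, and of those of 2, 76%, with 3.26% of calls false. In the measured data 54% of genes were called, so recovery with so few changed genes does not describe this comparison. Promoter windows came from RefSeq (GRCh38.p14).

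The genes named were the 15 largest and 15 smallest differences and the 8 most abundant in each direction. These were taken only from called genes at which the lines did not overlap. Up to 4 called genes of each list, chosen single genes, and the 6 largest changes between states were added. Lists and single genes were chosen with earlier results of these data known. List members named outside this rule were chosen after their values were seen. Some genes the rule picked are not reported here.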

Additional observations from a re-analysis of the deposited data

Results flagged for a closer look

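The difference between HCC4006 and PC9 itself differed between dormant and untreated cells at 623 genes, tested as the contrast of both differences in limma (396 with a positive change and 227 with a negative one). Of the 6 with the largest such change, 5 are given here. MGP, a matrix protein that inhibits calcification, was at 26.9 FPKM in dormant HCC4006 and 2380 and 2713 FPKM in dormant PC9, against 16.9 and 30.1 FPKM in untreated HCC4006 and 21.7 and 18.4 FPKM in untreated PC9 (change -6.68, adjusted p = 2.08e-05). TGM2, a protein cross-linking enzyme, was at 3.98 FPKM in dormant HCC4006 and 0.81 and 0.215 FPKM in dormant PC9, against 4.75 and 4.59 FPKM in untreated HCC4006 and 155 and 149 FPKM in untreated PC9 (change 6.5, adjusted p = 2.08e-05). The dormant PC9 libraries lay outside the range of the untreated ones at both genes, whereas the dormant HCC4006 value lay inside the untreated HCC4006 range at MGP and just below it at TGM2.

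ALPP, the placental alkaline phosphatase, was at 0.05 FPKM in dormant HCC4006 and 199 and 349 FPKM in dormant PC9, against 0.105 and 0.19 FPKM in untreated HCC4006 and 4.25 and 4.05 FPKM in untreated PC9 (change -5.81). ADIRF, a regulator of fat cell formation, was at 9.62 FPKM in dormant HCC4006 and 267 and 441 FPKM in dormant PC9, against 32.5 and 39.4 FPKM in untreated HCC4006 and 21.3 and 19.6 FPKM in untreated PC9 (change -5.8). TGFBI was at 5394 FPKM in dormant HCC4006 and 9.23 and 7.01 FPKM in dormant PC9 (change 5.02). Dormant HCC4006 is 1 library in each of these values. With all 12 libraries the adjusted p of the change lay at 0.0029 for MGP, 0.00256 for TGM2 and ALPP, 0.0225 for ADIRF and 0.0386 for TGFBI.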

How the results depend on the processing

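Depth is known only relatively, each line has 2 untreated libraries, and duplicates may share a culture, so small differences of low genes are the least certain. Named genes were picked largely for large differences in these data, so counts of those that kept a call do not stand for all genes. Over all tested genes, 54% were called in the main fit, 49.4% in the 4 DMSO libraries alone and 12.1% with all 12 libraries. Of 184 named genes that were called, 171 kept their call in all 8 fits without 1 library, 182 in the 4 DMSO libraries alone and 103 with all 12 libraries, and 173 kept call and direction after median of ratios scaling.

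Genes called higher in untreated HCC4006 numbered 936 with all 12 libraries and 2755 at 5 FPKM, and between 2923, with the second PC9 DMSO library left out, and 5239, with the first HCC4006 DMSO library left out, against 4459. Genes called lower numbered 433 with all 12 libraries, 948 at 5 FPKM, 2912 under median of ratios scaling, 3094 under quantile normalization, and 1060 (without the first PC9 DMSO library) to 1686 over the fits without 1 library, against 1636. Between dormant cells, higher genes numbered 2812 with all 12 libraries, 2803 at 5 FPKM, 2588 under median of ratios scaling, 2638 under quantile normalization and 3817 to 5411 without 1 library, and lower genes 693 at 5 FPKM, 2565 under median of ratios scaling, 2475 under quantile normalization and 886 to 1279 without 1 library. Genes whose difference changed between states numbered 68 with all 12 libraries, 359 with a pseudocount of 0.1, 2182 with no filter, and 981 with at least 1 FPKM in 2 of all 12 libraries. Without 1 library they numbered 283 (without the first PC9 DMSO library), 286 (without the second), 401 (without the second dormant PC9 library) and up to 1564 (without the second HCC4006 DMSO library). The higher floor tests fewer genes; otherwise the cause was not tested.

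Reversals were seen in genes with a difference near 0. MT-RNR2 was at 0.00 with quantile normalization, which is no reversal. It had the highest FPKM in every library of the fit, and that method gives the top gene of each library the same value. With median of ratios scaling and with quantile normalization, EGFR was at -0.37 and -0.39, MET at -0.29 and -0.31, IGF1R at -0.23 in both, YAP1 at -0.31 and -0.38, WWTR1 at -0.01 and -0.08, and MGP at -0.34 and -0.40, and ACTB was at -0.42 with the first of these. Without the second HCC4006 DMSO library, EGFR was at -0.15, MET at -0.26, YAP1 at -0.30 and MGP at -0.23, and without the first they were at 0.40, 0.67, 0.34 and 0.57, the ends of their ranges without 1 library. ERBB2 was at 0.14 without the first HCC4006 DMSO library and at -0.31 without the second, and ACTB at -0.12 and 0.36. YAP1 was at -0.08 without the first PC9 DMSO library. IGF1R was at -0.05 in the R2 columns alone.

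Deviations of same-numbered DMSO libraries of HCC4006 and PC9 correlated at -0.122 across genes. The labels tie no shared culture, day or batch to a replicate number, and this correlation cannot show that there was none. With the replicate number as a block, 4302 genes were called higher and 1570 lower in untreated cells, 4618 and 991 in dormant cells, and the change was called for 291 positive and 173 negative genes. With the PC9 DMSO numbers crossed, an alternative added after the data were seen, 4320 were higher and 1589 lower.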

Other observations

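Claudins were split between the lines. CLDN7, a claudin of lung epithelium, was at 115 and 79.1 FPKM in HCC4006 and at 622 and 593 FPKM in PC9 (adjusted p = 4.34e-06 by limma, and 0.0841 with all 12 libraries), while CLDN10 was at 8.38 and 17.6 FPKM in HCC4006 and listed at 0 in both PC9 libraries. Of 21 tight junction genes, 15 passed the filter, with 8 called higher and 3 lower, against 39.5% and 14.5% of all tested genes. The counts were 6 and 4 after median of ratios scaling, and 2 and 1 with all 12 libraries. The chains of laminin 332, the anchor of epithelia to the basement membrane, also differed in both directions. LAMB3 was at 275 and 220 FPKM in HCC4006 and 37.6 and 27.1 FPKM in PC9 (adjusted p = 5.93e-06, and 0.135 with all 12 libraries). LAMA3 was at 1.68 and 3.58 FPKM in HCC4006 and 17.5 and 13.8 FPKM in PC9. Of 15 S100 genes, 11 passed the filter, with 7 called higher and 3 lower (2 and 3 with all 12 libraries); S100P, a secreted member, was at 0.14 and 0.11 FPKM in HCC4006 and 96.1 and 98 FPKM in PC9.

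Of 25 cytokine and chemokine genes found, 10 passed the filter and 7 were called higher in HCC4006, with 0 lower; after median of ratios scaling 6 were higher and 1 was lower, and with all 12 libraries 3 were higher. CSF2, the growth factor GM-CSF, was at 2.73 and 3.27 FPKM in HCC4006 and listed at 0 in both PC9 libraries, and IL11 was at 3.83 and 4.99 FPKM in HCC4006 and 0.085 and 0.115 FPKM in PC9. Of 22 glycolysis genes, 20 passed, with 8 called higher and 3 lower, near the shares over all tested genes (39.5% higher, 14.5% lower). The counts were 5 and 5 after median of ratios scaling, and 1 and 0 with all 12 libraries. PGK1, an ATP-producing enzyme of the pathway encoded on X, was at 5350 and 4965 FPKM in HCC4006 and 891 and 767 FPKM in PC9. SLC2A1, the glucose transporter, was at 17.6 and 22 FPKM in HCC4006 and 62.2 and 58.9 FPKM in PC9 (adjusted p = 0.000198, and 0.0944 with all 12 libraries). LGR5, a receptor of stem cells that acts in the Wnt pathway, was at 3.88 and 4.11 FPKM in HCC4006 and listed at 0 in both PC9 libraries.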
